A study of Mus musculus with 6 samples.

Results

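Guanylate-binding proteins (GBPs) and immunity-related GTPases (IRGs) were followed in neutrophils that lacked the DNA sensor cGAS. The 10 genes were chosen by symbol, 6 GBP genes (Gbp2, Gbp3, Gbp4, Gbp5, Gbp6 and Gbp7) and 4 IRG genes (Igtp, Irgm1, Irgm2 and Ifi47), from the 38739 genes of the table. All 10 were among the 23049 genes with a value above 0 in at least 1 sample, which were the genes tested. The cells were peritoneal neutrophils of cGAS knockout mice on the C57B/L6 strain, elicited with thioglycolate according to the methods of the study. They were kept for 2 h in culture with media control (untreated, 3 samples) or with LPS from E. coli 026:B6 (3 samples). The labels give the LPS dose as 500 ng/mL, whereas the methods of the study give a lower dose for the sequenced cells, and which of them was used could not be settled here. Both groups carried the knockout and no wild-type neutrophils were sequenced, so the comparison is one of LPS against media within knockout cells. The labels give no age and do not tie samples to animals, so the p-values measure the spread between these samples, which may be technical.

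GBPs and IRGs are GTPases that are best known as effectors of interferon-γ. In infected cells they gather on the vacuoles that hold bacteria or parasites, mark them for rupture, and can expose bacterial LPS to caspase-11, the cytosolic LPS receptor encoded by Casp4. The genes are switched on mainly by transcription factors that bind gamma-activated sites (GAS) and by others, IRF1 among them, that bind interferon-stimulated response elements (ISRE). LPS acts through TLR4, which can induce IRF1 and interferon-β, and interferon-β then acts back on the cell.

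The authors call the values normalized counts. From their digits and the tools named they were taken here as TPM (a measure of transcript abundance per transcript length) scaled by 1 factor per sample, and read depth is unknown. Scaled TPM of Cgas itself ran from 0.18 to 0.307 without LPS and from 0.0286 to 0.184 after it, low in all 6 samples, although without the layout of the deletion such residual values check the knockout only in part. Of 14 neutrophil markers 12 were in the table and 11 were above 0. Their sum was 9.58e+03 to 2.83e+04 in untreated and 1.6e+04 to 5.45e+04 in LPS samples and rested mainly on S100a8 and S100a9, whereas Elane was at 0 and Mpo was near 0, at 0.0181 to 0.138. Gene by gene the list did not go one way, with 5 of 11 estimates above 0 and a median log2 difference of −0.06. Cxcr2, a chemokine receptor, was called lower by p and fold (39.4, 120 and 100 against 7.1, 23.6 and 8.69, log2 difference −2.67, unadjusted p = 0.0048, limma adjusted p = 0.094). Markers of B cells were present as well, as given below. The summed values of the protein-coding genes took a smaller part of the untreated samples (21.6% to 29.0%) than of the LPS samples (50.6% to 60.0%). For this reason the genes were also compared after rescaling to the protein-coding sum.

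None of the 10 genes was called after LPS. The estimate was above 0 for all 10, with a median log2 difference of 1.18 (0.01 over all genes tested, 0.37 over 6004 protein-coding genes with a mean of 1 or more). Of all genes tested 52.9% were above 0, and 64.7% of those 6004 were. After rescaling to protein-coding genes 9 of the 10 members were above 0, and without untreated replicate 2 it was 7. A call needed an unadjusted p under 0.01 with a log2 difference over 2, the limits used in the study, or a Benjamini-Hochberg adjusted p under 0.05 in limma. By the first rule 0 of 10 were called, against 1.69% of all genes tested that were called higher, and by the second 0 of 10, against 0.894%. At an unadjusted p under 0.05, 3 of 10 were higher (Gbp2, Gbp3 and Irgm1). Higher at that limit were 10.3% of all genes and 1228 of the 6004 protein-coding genes with a mean of 1 or more. After rescaling to protein-coding genes the count of members was 2, and Irgm1 (1.56, unadjusted p = 0.11) no longer passed. Without untreated replicate 1 the count was 6, and without LPS replicate 1 or without LPS replicate 3 it was 1 (Gbp2). Under some alternative settings 1 or 2 of Gbp2, Gbp3, Igtp and Irgm1 were called by the first rule. In Gbp2, Gbp3 and Irgm1 every LPS sample lay above every untreated sample. This pattern was found in 13.1% of all genes and in 1473 of those 6004. The members were chosen with earlier results of these data known, so these shares describe the genes and are no test of them. In bulk RNA, fewer cells of a type and less RNA per cell cannot be told apart.

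The promoters show which members carry the binding letters of the interferon-driven factors. RefSeq windows (GRCm38.p6), from 250 bases before to 50 bases after the start site, were found for 8 of the 10 genes. Gbp4 and Gbp6 had none, and Gbp3 had a further window without GAS or ISRE letters. The ISRE letters (GAAA, any 2 bases, GAAA), searched on both strands like the others, stood in 7 of the 8 (Gbp2, Gbp3, Gbp5, Gbp7, Igtp, Irgm1 and Irgm2), against 3.44% of 32851 mouse promoter windows of the same length. The GAS letters (TTC, any 3 bases, GAA) stood in 4 of the 8 (Gbp5, Gbp7, Igtp and Irgm2), against 8.3%. These 4 held both, against 0.454% of all windows. The window of Ifi47 held neither. The NF-kB letters (GGG, any 5 bases, CC) stood in 5 of the 8, but also in 50.8% of all windows. The matches are letters in a window, not measured binding, and a window without them says nothing of the factor. The stretches that hold the matches are given 5′ to 3′ along the gene, from 110 bases (Gbp5, 175 bases) to 11 bases before the start site, with the GAS and ISRE letters in capitals. The first 3 belong to the genes whose groups did not overlap, and the others to those that hold both GAS and ISRE letters.
Gbp2 (chr3:142620553-142620652, plus strand): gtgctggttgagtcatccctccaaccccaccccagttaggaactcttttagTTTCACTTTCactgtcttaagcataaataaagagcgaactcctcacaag
Gbp3 (chr3:142559934-142560033, plus strand): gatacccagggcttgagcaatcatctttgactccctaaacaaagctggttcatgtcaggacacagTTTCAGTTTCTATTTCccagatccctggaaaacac
Irgm1 (chr11:48871431-48871530, minus strand): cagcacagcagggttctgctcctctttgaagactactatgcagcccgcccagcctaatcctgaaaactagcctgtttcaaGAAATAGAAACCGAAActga
Gbp5 (chr3:142496759-142496923, plus strand): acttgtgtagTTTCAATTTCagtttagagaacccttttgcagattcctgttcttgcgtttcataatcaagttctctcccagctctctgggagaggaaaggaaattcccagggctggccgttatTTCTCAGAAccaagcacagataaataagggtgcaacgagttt
Gbp7 (chr3:142530226-142530325, plus strand): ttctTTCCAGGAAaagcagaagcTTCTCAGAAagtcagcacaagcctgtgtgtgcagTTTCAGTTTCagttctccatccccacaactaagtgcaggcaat
Igtp (chr11:58199446-58199545, plus strand): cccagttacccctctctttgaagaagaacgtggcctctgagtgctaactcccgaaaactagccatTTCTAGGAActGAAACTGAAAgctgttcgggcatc
Irgm2 (chr11:58214867-58214966, plus strand): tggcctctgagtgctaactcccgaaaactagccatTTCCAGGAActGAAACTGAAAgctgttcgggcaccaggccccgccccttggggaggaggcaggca

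In Gbp2, Gbp3, Gbp5 and Gbp7 the ISRE letters read on the opposite strand, 39 to 165 bases before the start site. Gbp3 and Irgm1 each held a pair of overlapping matches. A further GAS match of Gbp5, 245 bases before the start site, lies outside the stretch shown. Igtp and Irgm2 share a stretch that reads almost alike: the GAS letters lie 45 bases before the start site of Igtp and 75 before that of Irgm2, followed in both by the ISRE letters. Laid over each other at that offset, 184 of 270 bases (68.1%) of their windows were identical, and the longest shared run was 61 bases. Their values, given below, ordered the untreated samples differently.

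**Figure D1:**
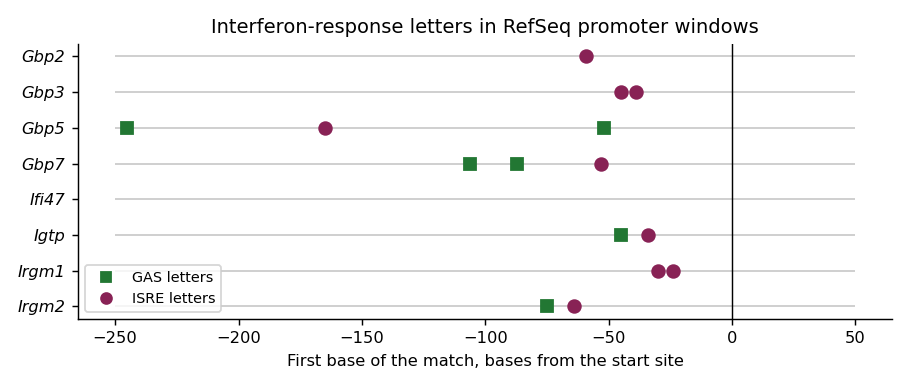
Positions of GAS letters (squares) and ISRE letters (circles) in the promoter windows of 8 members, in bases from the start site (vertical line at 0). ISRE letters lie 24 to 64 bases before the start site in 6 genes and 165 bases before it in Gbp5, and Ifi47 has neither motif.

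Gbp2, a GTPase that coats pathogen vacuoles, had the highest mean after LPS. Its scaled TPM was 21.1, 28.1 and 2.73 in untreated replicates 1, 2 and 3, and 136, 54.8 and 181 in LPS replicates 1, 2 and 3. All 3 LPS samples were above all 3 untreated samples, and LPS replicate 2 was the closest to them. The log2 difference was 3.06 ± 0.89 (SE, n = 3 and 3), with a 95% interval of 0.88 to 5.24 and a limma unadjusted p of 0.014 (adjusted p = 0.15). Gbp2 lies on chromosome 3 (142326349 to 142343779, plus strand, GRCm39) near Gbp3, Gbp5 and Gbp7.

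Gbp3, of the same cluster on chromosome 3, was low in untreated cells. It was at 0.777, 0.313 and 0.53 scaled TPM without LPS, and at 6.16, 1.48 and 7.28 with it. The groups did not overlap, and LPS replicate 2 stood closest to the untreated samples. Its log2 difference of 1.79 ± 0.53 (interval 0.49 to 3.08) had a limma adjusted p of 0.16 and an unadjusted p of 0.015. On this scale, log2(value + 1), the change of so low a gene is understated.

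Irgm1, a regulatory IRG that sits on the cell's own membranes and restrains the effector IRGs, was the IRG gene whose groups did not overlap. It was at 16.5, 2.01 and 8.6 scaled TPM in untreated samples and at 35.3, 18.1 and 47.6 in LPS samples. The lowest LPS sample, replicate 2, was just above the highest untreated sample, replicate 1. The log2 difference was 2.02 ± 0.73 (interval 0.24 to 3.80, unadjusted p = 0.032, limma adjusted p = 0.23). Irgm1 lies on chromosome 11 (48752795 to 48763164, minus strand, GRCm39).

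**Figure D2:**
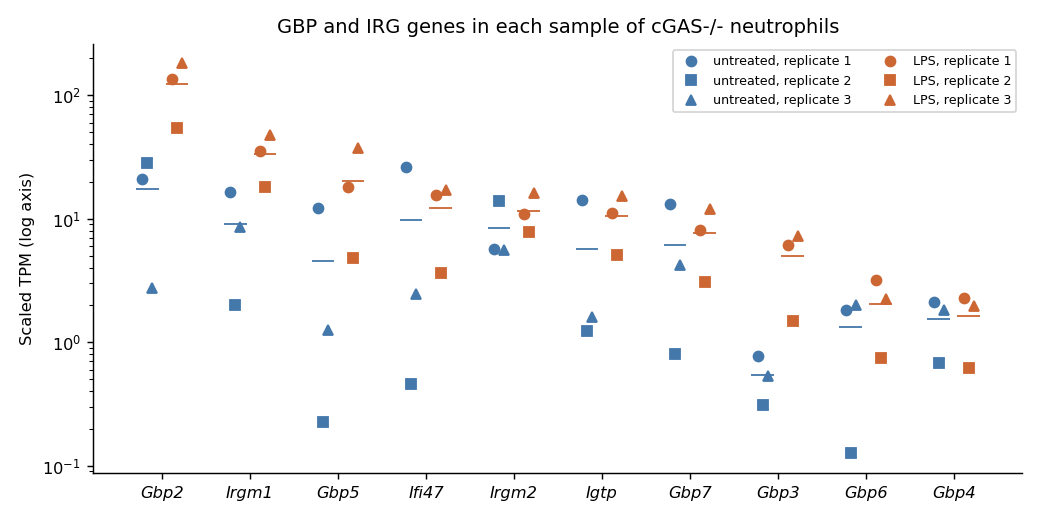
Scaled TPM (log axis) of the 10 genes in each sample, untreated in blue and LPS in orange, with the replicate number as the marker and the group mean as a bar. LPS replicate 2 (orange square) is the lowest LPS sample in all 10 genes, and Gbp2, Irgm1 and Gbp3 are the genes whose groups do not overlap.

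Gbp5, which promotes inflammasome assembly, had the second largest difference and the widest untreated range of the GBPs on the log scale. It was at 12.2, 0.225 and 1.26 scaled TPM in untreated and at 18.2, 4.85 and 37.2 in LPS samples. Untreated replicate 1 lay above LPS replicate 2, so the groups overlapped. The log2 difference was 2.29 ± 1.08 (interval −0.35 to 4.93, limma adjusted p = 0.35).

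Gbp7, which has been tied to the transport of oxidase and autophagy proteins, was at 13.2, 0.803 and 4.25 without LPS and at 8.09, 3.06 and 12 with it. Untreated replicate 1 was the highest of the 6 samples. The log2 difference of 0.61 ± 0.85 (interval −1.45 to 2.67, limma adjusted p = 0.7) was within the spread between samples.

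Gbp4 and Gbp6 lie in the other GBP cluster, on chromosome 5. Gbp4 was at 2.11, 0.682 and 1.84 scaled TPM in untreated and at 2.3, 0.614 and 1.98 in LPS samples, so both groups spanned nearly the same range. Its log2 difference was 0.03 ± 0.44 (interval −1.04 to 1.10, limma adjusted p = 0.98), and it fell below 0 under 6 of 18 alternative settings, among them quantile normalization (−0.09), centring on the median (−0.17) and rescaling to protein-coding genes (−0.25). With an interval of this width, the p-value does not show that Gbp4 was left unaltered. Gbp6 was at 1.84, 0.126 and 1.99 without LPS and at 3.18, 0.75 and 2.23 with it. Untreated replicate 2 was the lowest of the 6 samples, and the groups overlapped. Its log2 difference was 0.43 ± 0.55 (interval −0.91 to 1.78, limma adjusted p = 0.68). Gbp6 is uncertain, since 66.5% of the 31-base words of its transcripts also occur in other genes, 57.5% in Gbp10 and 58.1% in Gm43302.

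Igtp and Irgm2 encode the other regulatory IRGs, and overlap on the plus strand of chromosome 11 (58089840 to 58098417 and 58090444 to 58113615, GRCm39). Igtp was at 14.1, 1.24 and 1.6 scaled TPM in untreated and at 11.1, 5.07 and 15.4 in LPS samples. Untreated replicate 1 lay within the range of the LPS samples, and the other untreated samples were below all of them. The log2 difference was 1.26 ± 0.84 (interval −0.78 to 3.29, limma adjusted p = 0.51). Without untreated replicate 1 it was 2.14, with an unadjusted p of 0.0083 and a limma adjusted p of 0.12, a call by the first rule. Over the 18 alternatives its adjusted p ran from 0.12 to 0.9. Irgm2 was at 5.73, 14 and 5.62 without LPS and at 10.9, 7.77 and 16.3 with it, and the highest untreated sample was replicate 2, which was the lowest in Igtp. Its log2 difference was 0.47 ± 0.47 (interval −0.66 to 1.61, limma adjusted p = 0.59). Both genes share few words, 7.87% of those of Igtp and 10.2% of those of Irgm2, but reads from the sequence they share could have been counted to either.

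Ifi47, an effector IRG, had the widest range in untreated cells. Its scaled TPM was 26.5, 0.459 and 2.48 in untreated and 15.7, 3.61 and 17.1 in LPS samples. The highest and the lowest of the 6 values were both untreated. The log2 difference was 1.10 ± 1.17 (interval −1.75 to 3.96, limma adjusted p = 0.62), the largest SE of the 10 genes.

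**Figure D3:**
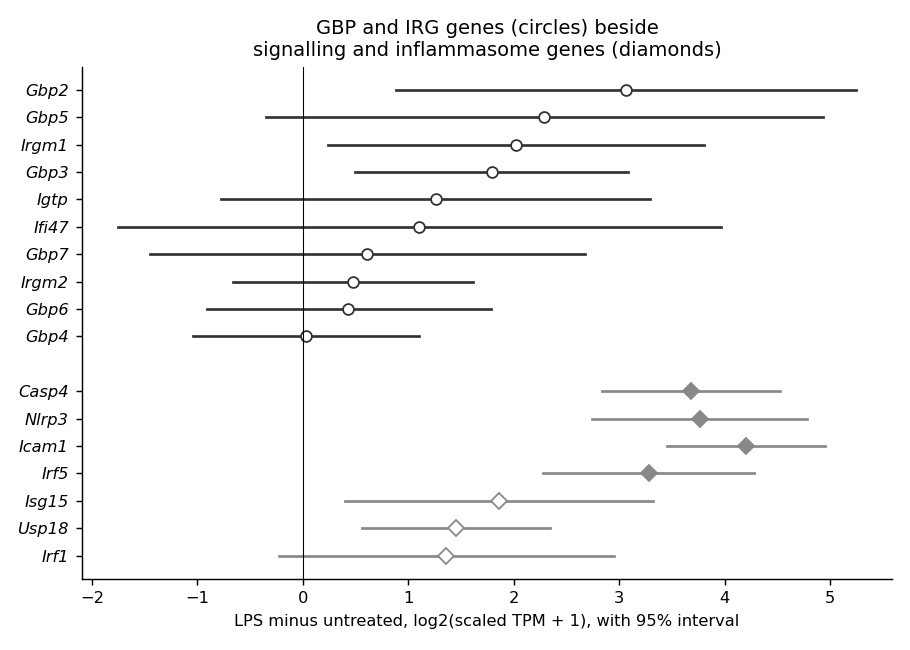
Log2 difference, LPS minus untreated, on the log2(scaled TPM + 1) scale with its 95% interval, for the 10 GBP and IRG genes (circles) and 7 other genes (diamonds), filled where the limma adjusted p is under 0.05. Among the 10, the intervals of Gbp2, Irgm1 and Gbp3 lie above 0, and the filled symbols are those of Casp4, Nlrp3, Icam1 and Irf5. The 7 other genes were picked and all have estimates above 0, whereas Samhd1 and Aim2, with estimates below 0, are not shown.

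By mean scaled TPM the order after LPS was Gbp2 (124 ± 63.9, SD), Irgm1 (33.7 ± 14.8), Gbp5 (20.1 ± 16.2), Ifi47 (12.1 ± 7.39), Irgm2 (11.6 ± 4.3), Igtp (10.5 ± 5.18), Gbp7 (7.71 ± 4.48), Gbp3 (4.97 ± 3.08), Gbp6 (2.05 ± 1.22) and Gbp4 (1.63 ± 0.895). Among neighbours in that order, only the ranges of Gbp2 and Irgm1 did not overlap. In untreated cells Gbp2 came first (17.3 ± 13.1) and Gbp3 last (0.54 ± 0.232), and every pair of neighbours overlapped. The order is limited by the values themselves, which are averages over a gene's transcripts whose number in the authors' annotation is unknown.

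The summed scaled TPM of the 10 genes was 114, 47.9 and 30.9 in untreated and 247, 100 and 338 in LPS replicates 1, 2 and 3. LPS replicate 2 was below untreated replicate 1, so the sums overlapped. Gbp2 made up 55.1%, 54.7% and 53.5% of the sum in the LPS samples and 18.5%, 58.5% and 8.83% in the untreated ones. Untreated replicate 2 was thus as rich in Gbp2, in share, as the LPS samples. Without Gbp2 the sums were 93, 19.9 and 28.2 against 111, 45.3 and 157. As a part of the protein-coding sum, the 10 genes took 0.074%, 0.0251% and 0.0212% in untreated and 0.12%, 0.0358% and 0.163% in LPS samples. Like the order above, these sums and shares are limited by values that are averages over a gene's transcripts.

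Within a group, the samples differed in a similar way in most of these genes. LPS replicate 2 was the lowest LPS sample in 10 of 10 genes, as in 45.6% of the protein-coding genes with a mean of 1 or more. Untreated replicate 2 was the lowest untreated sample in 8 of 10, all but Gbp2 and Irgm2, against 37.8%. Untreated replicate 1 was the highest in 7 of 10, against 33.6% of those protein-coding genes, and LPS replicate 3 in 8 of 10, against 25.3%. The SD of log2 values between untreated samples had a median of 1.39 over the 10 genes and 0.76 over those protein-coding genes, and between LPS samples 0.80 and 0.30. Correlations of deviations from the group means, over 6 samples and as a description, had a median of 0.70 over the 45 pairs of members (−0.40 to 0.99). Of these pairs 36 were above 0. Among the 28 pairs without Gbp2 and Irgm2 the median was 0.85 (0.59 to 0.99). These are the members that ordered the untreated samples differently, so the higher median follows from leaving them out. Such correlations were not computed for other genes.

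Some sums of cell type markers, but not all, were lowest or highest in replicate 2 of both groups. The sum of 4 B cell markers (of 5 listed) was 542, 142 and 406 scaled TPM in untreated replicates 1, 2 and 3. In LPS replicates 1, 2 and 3 it was 236, 66.7 and 223, so it was lowest in replicate 2 of both groups. Cd79b (61.3, 111 and 175) and Pax5 (0.608, 1.01 and 1.93) were, however, lowest in untreated replicate 1. The sum of the neutrophil markers was highest in replicate 2 of both groups (2.83e+04 and 5.45e+04, against 9.58e+03 to 1.82e+04 in the other samples). Between the groups the B cell sums overlapped, and 0 of the 4 markers passed an unadjusted p of 0.05 in limma. The 8 macrophage markers in the table (of 11) summed to 190, 165 and 200 in untreated and 356, 418 and 272 in LPS samples. The groups did not overlap, and replicate 2 was the lowest untreated but the highest LPS sample. Most of the sum was Cd68 (179, 157 and 162 against 303, 381 and 230), in which replicate 2 was likewise the highest LPS sample. The other 7 summed to 10.9, 8.05 and 38.5 in untreated and to 53.4, 36 and 41.7 in LPS replicates 1, 2 and 3, and were, like most of the GBP and IRG genes, lowest in replicate 2 of each group. Of the 8, C1qb, a complement component, was called by the first rule (log2 difference 2.62, adjusted p = 0.064), against 1.69% of all genes called higher. Dendritic cell markers (5 of 5) summed to 5.27, 1.38 and 6.14 against 3.88, 2.12 and 4.35, again lowest in replicate 2 of each group. T or NK cell markers (7 of 9) summed to 14.4, 14.8 and 12.5 against 11.4, 5.29 and 13.1. Replicate 2 was here the highest untreated and the lowest LPS sample. Mast cell or eosinophil markers (6 of 7, Epx at 0) summed to 4.79, 5.55 and 41.3 against 24.6, 5.19 and 49.5, lowest in replicate 2 only after LPS. The part of other cells in the values of the GBP and IRG genes was not tested. With the samples numbered 2 left out of both groups, a setting added after the data were seen, Gbp2 was at 4.12, Gbp3 at 2.22 and Irgm1 at 1.70 in log2 difference. Gbp3 was then called by the first rule (unadjusted p = 0.0026, limma adjusted p = 0.11).

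**Figure D4:**
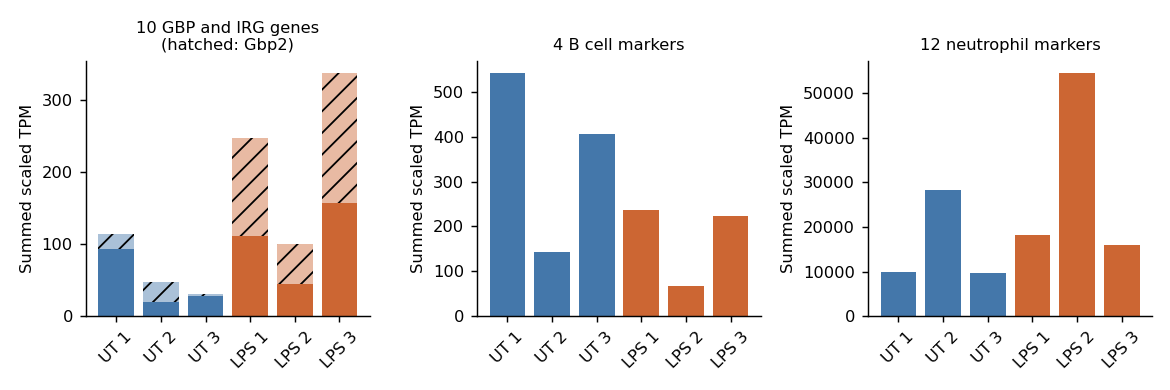
Summed scaled TPM in each sample (UT, untreated) of the 10 GBP and IRG genes with Gbp2 hatched (left), of 4 B cell markers (middle) and of 12 neutrophil markers, one of them at 0 (right). Replicate 2 has the lowest B cell and the highest neutrophil sum in both groups, and the lowest GBP and IRG sum among the LPS samples.

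Of 18 further genes of these families, 14 were in the table. Gvin1, a very large interferon-inducible GTPase, was the 1 gene of the 14 that was called (1.69% of all genes were called higher). It was called by p and fold under 7 of 18 alternatives, and not after rescaling to protein-coding genes. It was at 3.13, 3.72e-09 and 2.27 without LPS and at 16.9, 7.9 and 13.3 with it, so the groups did not overlap. The log2 difference was 2.46 (unadjusted p = 0.0074, limma adjusted p = 0.11), but 99.7% of its 31-base words occur in other genes, 99% in Gvin2, so it cannot be separated from Gvin2 (1.12, adjusted p = 0.45). Gvin3, with 40.8% of its words of its own, differed by 0.37 (adjusted p = 0.85). Gbp2b, next to Gbp2, was listed at 0 throughout the untreated group, and was at 0.361, 0.124 and 0.477 after LPS. Tgtp2, an effector IRG, was at 0.66, 0.565 and 5.62 against 11.9, 2.46 and 15.2 (log2 difference 1.80, adjusted p = 0.34), and Tgtp1 differed by 0.39 (adjusted p = 0.76), with 85.7% to 90.5% of their words shared. The remaining estimates were −0.28 for Gbp8, −0.04 for Gbp9, −0.28 for Gbp10, −0.08 for Gbp11, −1.14 for 9930111J21Rik1, −0.52 for 9930111J21Rik2, −0.17 for Irgc1 and 0.41 for Irgq. In all, 7 of the 14 were above 0, with a median of 0.16.

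The signals that drive GBP and IRG genes were examined next, from lists of the pathway. Ifng, Ifnb1, Ifna2, Ifnk, Ifngr1, Samhd1, Irf1, Stat2, Isg15, Usp18, Aim2 and Icam1 were chosen for their role or direction after their values were seen. Of 21 interferon genes in the table, 16 were at 0 in all samples and 0 of the 5 tested were called by limma (0 at an unadjusted p under 0.05). Ifnb1, which encodes interferon-β, was listed at 0 without LPS in every replicate, and it was at 2.15, 0 and 0.955 in LPS replicates 1, 2 and 3. Ifng was likewise listed at 0 in the untreated cells and was at 0.391, 0 and 0.815 after LPS. LPS replicate 2, the lowest LPS sample in all 10 GBP and IRG genes, was the LPS sample in which both were at 0, whereas Ifna2 had its only value above 0 there (0.389). Ifnk was above 0 in LPS replicate 1 alone (0.781). LPS replicate 2 also had fewer genes above 0 in all (16148) than LPS replicates 1 (18518) and 3 (19191). At an unknown depth such a 0 cannot be told from a low level. Of the receptor and kinase genes 0 of 4 were called by limma (2 at an unadjusted p under 0.05), and Ifngr1, a chain of the interferon-γ receptor, was at 6.24, 3.14 and 25.8 against 6.62, 13.1 and 6.69.

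Of 10 tested factors that act on GAS and ISRE elements, 6 had estimates above 0, with a median log2 difference of 0.12. Over protein-coding genes with a mean of 1 or more, 64.7% were above 0 and the median was 0.37. Only Irf5 was called (1.69% of all genes were called higher by the first rule). It rose from 1.02, 1.87 and 3.6 to 25.6, 23.3 and 36.8 (log2 difference 3.28, limma adjusted p = 0.026). Irf5 stayed called by p and fold under all 18 alternatives, and its adjusted p ran from 0.0092 to 0.15, missing 0.05 after rescaling to protein-coding genes, without untreated replicate 1 and without LPS replicate 1, 2 or 3, among others. Irf1, a direct activator of GBP genes, was at 2.87, 1.1 and 9.75 against 11.4, 6.92 and 14.1, and its groups overlapped (1.36, limma adjusted p = 0.35). Stat2, part of the complex that binds ISRE, differed by 0.14 (adjusted p = 0.87). Of 9 inhibitors of interferon signalling, Irf2bp1, a corepressor that binds IRF2, was called by the first rule (2.06, adjusted p = 0.065), against 1.69% of all genes called higher. This call held under 8 of 18 alternatives, and not after rescaling to protein-coding genes. Usp18, which blocks the receptor of type I interferons, differed by 1.45 (adjusted p = 0.11), with all LPS samples above the untreated ones.

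Other interferon-stimulated genes had 22 of 26 estimates above 0, with a median of 0.86. Estimates were above 0 in 52.9% of all genes and in 64.7% of the 6004 protein-coding genes with a mean of 1 or more. Of the 26, 3 were called (1.69% of all genes were called higher). These were the chemokine Cxcl10 (2.70, adjusted p = 0.1), Xaf1, which binds an inhibitor of apoptosis (2.29, adjusted p = 0.085), and Ifih1, the RNA sensor MDA5 (2.15, adjusted p = 0.051). None of the 26 passed an adjusted p of 0.05 in limma. At an unadjusted p under 0.05, 9 were higher (10.3% of all genes, 1228 of those 6004) and 1 was lower. The lower one was Samhd1, which degrades dNTPs, at 63, 105 and 59.1 against 16.3, 23.5 and 19.3 (−1.86, adjusted p = 0.058). Isg15, a ubiquitin-like modifier, was at 73.6, 139 and 330 against 611, 383 and 700 (1.86, adjusted p = 0.19). The 3 calls depended on the setting. By p and fold, Cxcl10 was called under 8 of 18 alternatives, Xaf1 under 11 and Ifih1 under 14. After rescaling to protein-coding genes, 0 of the 26 were called higher and 1 was called lower.

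Genes of the non-canonical and AIM2 inflammasomes, with which GBPs act in the sensing of cytosolic LPS, were called in 3 of 9, and 2 of these passed the adjusted p. Over all genes, 1.69% were called higher by the first rule and 0.894% by the adjusted p. Casp4, the cytosolic LPS receptor, rose from 5.6, 2.66 and 3.92 to 52, 75.7 and 60.4 (log2 difference 3.68, limma adjusted p = 0.014), and here LPS replicate 2 was the highest sample. Nlrp3, the inflammasome sensor, rose from 12.4, 33.7 and 19.6 to 327, 238 and 303 (3.76, adjusted p = 0.02). The adjusted p passed for neither gene when LPS replicate 1, 2 or 3 was left out, nor for Nlrp3 without untreated replicate 3 (Casp4 up to 0.13 and Nlrp3 up to 0.15 over the 18 alternatives), while both stayed called by p and fold under all 18. Il1b, an inflammasome substrate, was called by the first rule alone (2.22, adjusted p = 0.097), and under 12 of the 18 alternatives by that rule.  Of the LC3-like conjugation machinery, which loads GBPs and IRGs onto vacuoles, 0 of 9 genes were called by limma (2 higher and 1 lower at an unadjusted p under 0.05). Of the enzymes that prenylate or process CaaX proteins, among them Gbp2 and Gbp5, 0 of 4 were called (0 at an unadjusted p under 0.05).

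Early TLR4 target genes, by comparison, were called in 10 of 14 (1.69% of all genes), 8 of them by the adjusted p (0.894%). The median log2 difference was 3.61. Il1b and Nlrp3 are in this list and in that of the inflammasomes, so their calls are counted in both. The count by p and fold was 8 to 10 when single samples were left out, but the count by adjusted p fell to 0 without LPS replicate 1 or LPS replicate 3, to 1 without LPS replicate 2 and to 2 without untreated replicate 3. The largest were Cxcl3 (5.57, limma adjusted p = 0.014), Il1a (5.23, adjusted p = 0.072), Cxcl1 (4.90, adjusted p = 0.033) and Ptgs2 (4.33, adjusted p = 0.046), and Icam1, an adhesion molecule, differed by 4.20 (adjusted p = 0.0065).

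Among 5994 other protein-coding genes with a mean of 1 or more, those whose log2 values followed the mean of the 10 GBP and IRG genes most closely over the 6 samples were Calcrl, Cd40 and Mrgprb1 (Pearson r = 0.985 each), Mthfd2 (0.984) and Phlpp1 (0.983). Cd40, a receptor for T cell help, was at 5.57, 0.344 and 1.36 without LPS and at 20.1, 4.26 and 19.5 with it. In each group replicate 2 was the lowest, as in most of the GBP and IRG genes. The r values were selected as the highest among all these genes over 6 shared samples and serve as a description.

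**Figure D5:**
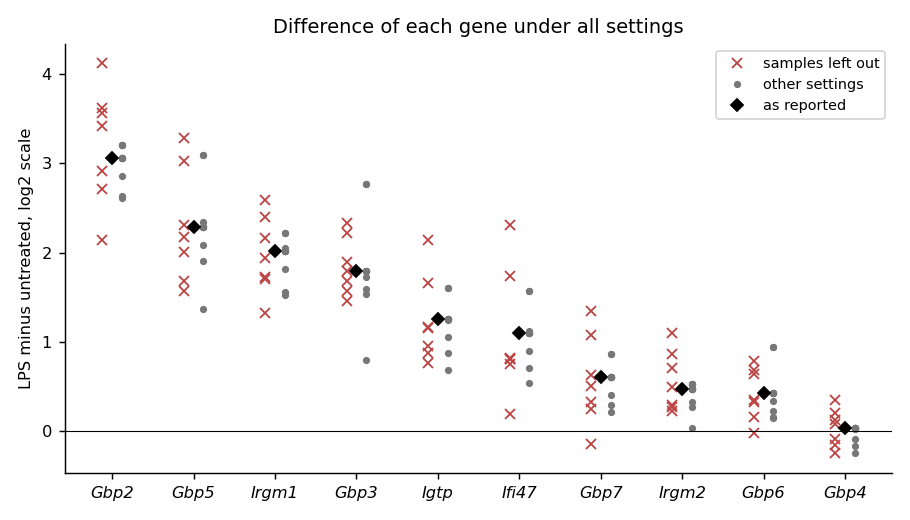
Log2 difference of each gene under all 18 alternative settings: crosses with samples left out, grey points for the other settings, and the reported value as a black diamond. Gbp4, Gbp6 and Gbp7 cross 0 under at least 1 setting, and the other 7 genes stay above 0 under all of them.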

How the data were processed

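RNA sequencing was performed on 6 samples of cGAS-/- neutrophils (3 untreated, 3 LPS). Alignment by the authors used STAR and GRCm39, Kallisto gave transcript abundances and edgeR the normalization. Their annotation release is not given in the sources used here. What was deposited, named as normalized counts, was read from its digits as Kallisto TPM, a mean over each gene's transcripts that was then divided by a factor per sample. In untreated replicate 3, 51.4% of the values above 0 had at most 6 digits and 66.8% after multiplication by a whole number from 1 to 10. Read counts were not recovered and depth is unknown.

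A linear model in limma 3.58.1 (R 4.3.3; eBayes with trend, two-sided) was fitted to log2(value + 1), LPS against untreated, with Benjamini-Hochberg adjustment over 23049 genes above 0 in at least 1 sample. Groups came from the sample titles. Members and lists were chosen with earlier results of these data known. The rule named all members, further genes of the families in the table, up to 4 called genes per list by size, and the 5 genes most alike. Members' coordinates are from GENCODE M39 (GRCm39). Promoters are from RefSeq (GRCm38.p6). Shared words of 31 bases were counted in GENCODE M39 transcripts. Alternatives were other pseudocounts (0.1 and 5), filters, scalings, no trend, a replicate block and samples left out, with 3 added after the data were seen. The fit was tested on simulated data. For 1 gene of the pathway lists, counted in its list, the values are not reported here.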

Additional observations from a re-analysis of the deposited data

How the results depend on the processing

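Of 180 values of the 10 genes under 18 alternatives, 0 passed an adjusted p of 0.05 in limma (the lowest was 0.067, for Gbp2 with the mean filter) and 8 reversed. Gbp4 reversed with quantile normalization (−0.09), centring on the median (−0.17), rescaling to protein-coding genes (−0.25), without untreated replicate 2 (−0.24), without LPS replicate 1 (−0.16) and without LPS replicate 3 (−0.09). Without untreated replicate 2, Gbp6 (−0.02) and Gbp7 (−0.14) reversed too. Leaving out single samples, Gbp4 ran from −0.24 to 0.35, Gbp6 from −0.02 to 0.79 and Gbp7 from −0.14 to 1.35. Rescaling to protein-coding genes moved the median of these genes from 0.37 to 0.02 and that of the 10 members from 1.18 to 0.79. The causes were not tested. With 3 samples a group and no depth, the intervals of the members are the limit of what can be read.

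One member was called by p and fold under a pseudocount of 0.1 (1 gene, Gbp3), a pseudocount of 5 (1, Gbp2), the mean filter (1, Gbp2), and with the samples numbered 2 left out (1, Gbp3). Leaving out single samples gave 0 to 1 called members, Igtp without untreated replicate 1 (2.14, unadjusted p = 0.0083) and Gbp3 without LPS replicate 2 (2.33, unadjusted p = 0.0013). At an unadjusted p under 0.05 it gave 1 to 6: 6 without untreated replicate 1, and Gbp2 alone without LPS replicate 1 or LPS replicate 3.

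Same-numbered samples correlated in their deviations at 0.094, 0.199 and 0.083, so the numbers were not taken as pairing, although every sample correlated best with its own number. With the replicate block 1 member was called (Irgm1, log2 difference 2.02, unadjusted p = 0.0091, adjusted p = 0.18), with the block and a pseudocount of 0.1 2 members (Gbp3 and Irgm1), and with the block and the mean filter 1 (Irgm1). With the block, the adjusted p was 0.084 for Casp4, 0.089 for Nlrp3 and 0.082 for Irf5, and 0 of the 14 early TLR4 targets passed 0.05, although 10 stayed called by p and fold.

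Over all genes, 389 were called higher and 301 lower. These counts were 856 and 493 with a pseudocount of 0.1, 129 and 168 with 5, 154 and 127 after rescaling to protein-coding genes, and 644 higher with the block and a pseudocount of 0.1. By adjusted p, 206 were higher and 218 lower. These were 557 and 483 with the mean filter, 49 and 58 after rescaling, 687 and 611 without the trend, 1 and 15 with the replicate block, 5 and 33 with the block and a pseudocount of 0.1, 375 and 397 with the block and the mean filter, and 1 and 17 with the samples numbered 2 left out. Leaving out single samples gave 1 to 217 higher and 10 to 252 lower.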
